A study of Mus musculus with 7 samples.

Results

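The 10 genes described here, Cpa3, Gzmb, Ms4a2, Hdc, Fcer1a, Prg2, Mcpt8, Tph1, Il1rl1 and Ear2, are expressed by mast cells, basophils or eosinophils. They were taken by gene symbol from a table of 22680 genes, and all 10 had a row. RNA was sequenced from haematopoietic progenitors, sorted out of C57BL/6 fetal livers at 13.5 days post coitum. There were 3 libraries of Uhrf1-/- LSK cells, 1 library of wild-type LK cells and 3 libraries of wild-type LSK cells. LSK cells carry Sca-1 and c-Kit without lineage markers and include the stem cells, and LK cells are more mature progenitors that lack Sca-1. Uhrf1 brings the maintenance DNA methyltransferase Dnmt1 to newly replicated DNA. The sources used here do not give how the Uhrf1 allele was made or whether fetuses were pooled for a library. The comparison of genotypes asks how loss of Uhrf1 changes gene expression in these stem and progenitor cells.

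Mast cells and basophils store proteases and histamine in granules and release them when antigen crosslinks IgE on their high-affinity receptor. Eosinophils store basic proteins and ribonucleases. All of these cells descend from blood progenitors, and transcription factors of the GATA family, which bind the core word GATA in DNA, act in the formation of each of them. Transcripts of granule genes such as Cpa3 can be found in progenitors that have no granules yet, so that these genes serve as early signs of a lineage as well as markers of mature cells.

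Here a GATA word means AGATAA or TGATAA on either strand. Promoter windows are shown for 4 of the genes because 3 of them hold GATA words and the other holds none. Each window is the 250 bases before 1 annotated transcription start, 5′ to 3′ on the gene strand, from RefSeq on GRCm38.p6. Capitals mark AGATAA or TGATAA, or their reverse complements TTATCT and TTATCA, and lower case is the rest. Cpa3 is shown from chr3:20242182-20242431 (minus strand), Ms4a2 from chr19:11623720-11623969 (minus strand), the more upstream start of Il1rl1 from chr1:40429320-40429569 (plus strand) and Ear2 from chr14:44102404-44102653 (plus strand).
Cpa3: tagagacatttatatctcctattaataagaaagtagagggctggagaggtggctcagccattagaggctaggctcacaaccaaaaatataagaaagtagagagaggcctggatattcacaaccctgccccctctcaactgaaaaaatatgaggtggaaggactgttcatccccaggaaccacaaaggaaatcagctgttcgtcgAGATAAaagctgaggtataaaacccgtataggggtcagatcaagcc
Ms4a2: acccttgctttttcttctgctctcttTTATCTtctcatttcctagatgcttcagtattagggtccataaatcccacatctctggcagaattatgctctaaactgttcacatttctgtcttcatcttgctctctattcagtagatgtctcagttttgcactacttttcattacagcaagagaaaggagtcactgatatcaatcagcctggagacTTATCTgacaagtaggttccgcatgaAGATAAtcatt
Il1rl1: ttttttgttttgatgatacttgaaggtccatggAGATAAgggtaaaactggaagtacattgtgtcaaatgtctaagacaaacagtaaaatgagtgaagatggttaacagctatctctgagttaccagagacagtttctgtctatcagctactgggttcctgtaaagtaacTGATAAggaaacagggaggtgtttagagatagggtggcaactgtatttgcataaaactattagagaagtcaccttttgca
Ear2: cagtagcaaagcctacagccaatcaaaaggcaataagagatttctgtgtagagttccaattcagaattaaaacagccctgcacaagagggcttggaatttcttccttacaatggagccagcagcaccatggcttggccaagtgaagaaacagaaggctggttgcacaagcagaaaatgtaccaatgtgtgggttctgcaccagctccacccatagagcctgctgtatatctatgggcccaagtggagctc

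The Cpa3 window held 1 GATA word, 46 to 41 bases before the start. In the Ms4a2 window 3 words were found, of which the nearest lay 11 to 6 bases before the start. The Il1rl1 window shown held 2 words, and the window of its downstream start held 1. Fcer1a, which is not printed, had 1 word 92 to 87 bases before its start. No such word was found in the windows of Ear2, Mcpt8, Hdc, Gzmb or Tph1, which says only that these letters are not in these windows. Other forms around the core GATA were not counted, and the printed Ear2 window holds its reverse complement TATC. Thus 4 of the 9 genes matched in the promoter table, and 5 of their 11 windows, held a GATA word. Across 17484 genes of the expression table with 1 window each, 14.7% held one, and 2.39% held at least 2. The bases CG, at which DNA is methylated, occurred 2 times or fewer in 7 of the 11 windows, against 22.3% of all windows, whose median was 10. Ear2, Mcpt8, Fcer1a and the upstream Il1rl1 window held no CG. RefSeq gene spans given here take in all models of a gene, so a window can lie partly within the span of a longer model. This holds for 71 bases of the Ms4a2 window, with 2 of its 3 words, for 28 bases of the Cpa3 window, without its word, and for 3 bases of the Fcer1a window. The whole windows of Il1rl1, Hdc, Mcpt8 and the downstream Tph1 start lie within such spans. DNA methylation was not measured in this series, and a word in a sequence is no evidence that a factor binds there.

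**Figure D1:**
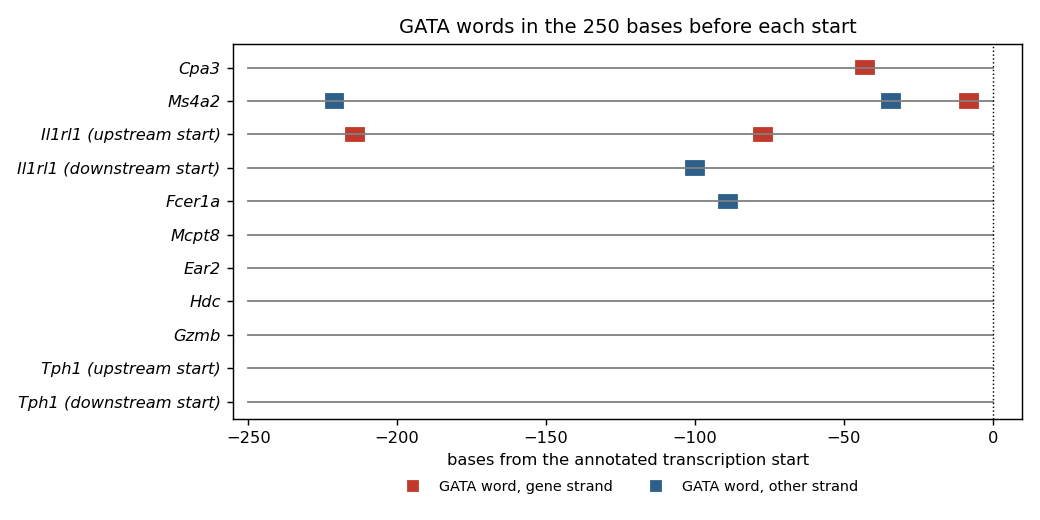
Position of GATA words (AGATAA or TGATAA, on either strand) in the 250 bases before each annotated start, with distance from the start in bases on the x axis and 1 line per window. Red boxes are words on the gene strand and blue boxes words on the other strand. Words are seen in Cpa3, Ms4a2, both Il1rl1 windows and Fcer1a.

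Levels are given in FPKM as deposited, which are fragments per kilobase of transcript scaled to the size of the library. A deposited count column was also divided by each library's value of 1 read to give read equivalents. The libraries held 16808521 to 25803045 read equivalents in all. Uhrf1, the deleted gene, stood at 10.2, 8.78 and 18.6 FPKM in Uhrf1-/- LSK replicates 1 to 3, at 115.9 FPKM in LK cells and at 63.0, 66.8 and 112.8 FPKM in wild-type LSK replicates 1 to 3. The sort marker Sca-1 (Ly6a) was at 0.321 FPKM in the LK library and between 26.4 and 96.4 FPKM in the LSK libraries, and Kit was between 24.4 and 56.6 FPKM in all 7. Replicate 3 of both genotypes stood apart in the immediate-early gene Junb, with 22.4 FPKM in Uhrf1-/- and 5.31 FPKM in wild-type cells, while the other LSK libraries had 188.5 to 250.4 FPKM. The LK library had 8.09 FPKM of Junb, near replicate 3. What this difference between libraries adds to the comparison of LK with LSK cells was not tested. Wild-type LSK replicate 2 was low in ribosomal protein genes, at 4.17% of its summed values, beside 9.55% to 14.3% in the other libraries. These are bulk samples, in which more cells of a type and more RNA per cell cannot be told apart.

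Cpa3, Ms4a2, Il1rl1, Mcpt8 and Ear2 were each higher in every Uhrf1-/- LSK library than in any wild-type LSK library. The ranges of Hdc, Prg2 and Gzmb overlapped between genotypes, and Fcer1a and Tph1 were listed at 0 in all 7 libraries. Of the 8 genes above 0 in these 6 libraries, 5 thus had separate ranges with Uhrf1-/- higher and 0 with Uhrf1-/- lower. Among all 16724 genes above 0, 4.21% had separate ranges with Uhrf1-/- higher and 6.02% with Uhrf1-/- lower, and among those of at least 1 FPKM these shares were 4.61% and 6.16%. The 10 genes were chosen with earlier results of these data known, so that setting 5 of 8 beside these shares is no test of them. Only 4 of the 10 genes, Cpa3, Hdc, Prg2 and Ear2, reached the minimum mean of 1 FPKM over the LSK libraries at which genes were tested. With limma, 1 of the 10 was called higher at an adjusted p under 0.05 (Cpa3), where 0.113% of all tested genes were called higher. With the replicate number as a block, Cpa3 and Ear2 were called higher, where 1.23% of all tested genes were. Ear2 reached the minimum only through the Uhrf1-/- libraries, so that nothing is read from this count beyond Cpa3. None of the 4 was called lower in either fit, where 0.0566% and, with the block, 0.83% of tested genes were lower.

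**Figure D2:**
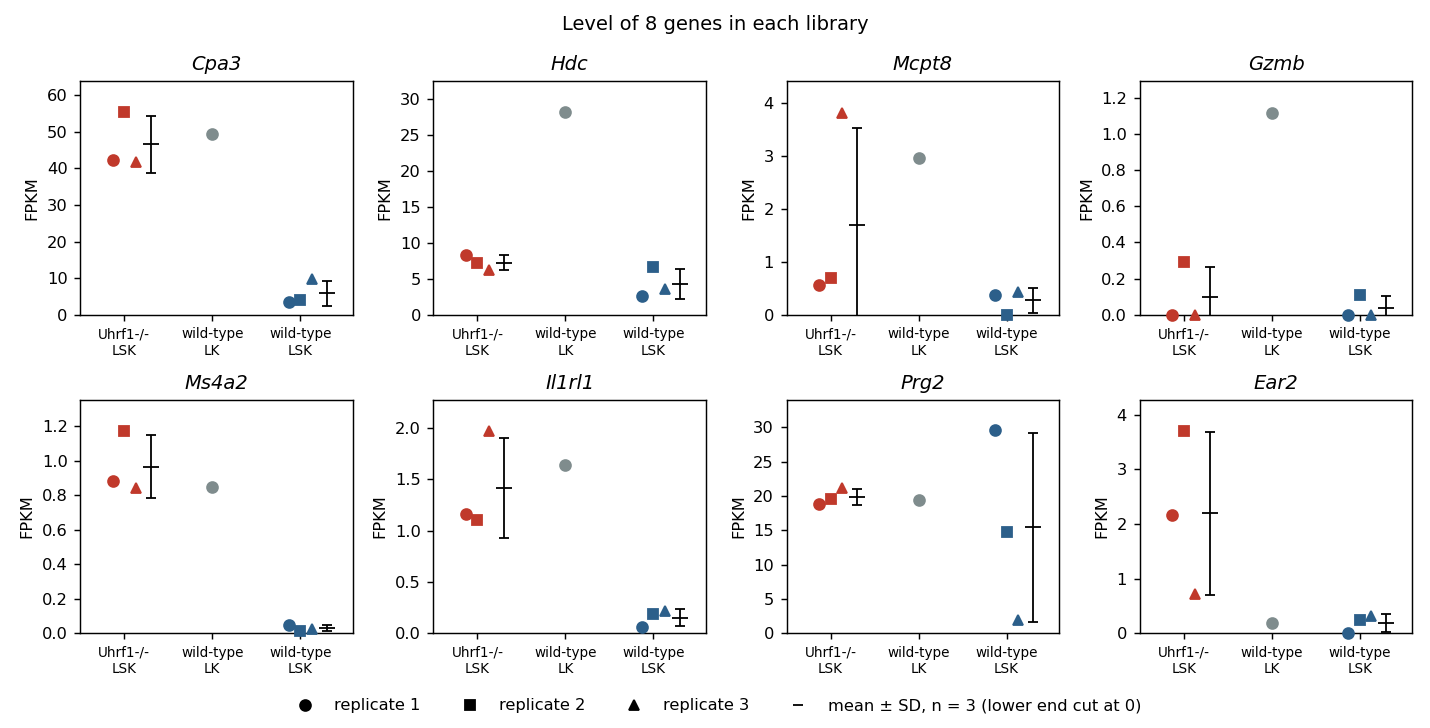
Level in FPKM (y axis, linear, from 0) of 8 genes in Uhrf1-/- LSK, wild-type LK and wild-type LSK libraries, with 1 point per library and black bars for the mean ± SD of the 3 LSK libraries of a genotype. Cpa3, Ms4a2, Il1rl1, Mcpt8 and Ear2 show no overlap between genotypes, and Hdc and Gzmb are highest in the LK library.

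Cpa3 (Entrez gene 12873; chromosome 3, 20215616 to 20242209 on GRCm38, protein-coding) encodes the carboxypeptidase of mast cell granules. Its level was 42.3, 55.3 and 41.7 FPKM in Uhrf1-/- LSK replicates 1 to 3, against 3.61, 4.13 and 9.77 FPKM in wild-type LSK replicates 1 to 3. The LK library had 49.3 FPKM. The Uhrf1-/- and wild-type LSK ranges lay far apart, and the LK library lay inside the Uhrf1-/- range. These levels rest on 1476, 1985 and 1592 read equivalents in Uhrf1-/- and 111, 188 and 497 in wild-type LSK libraries. Cpa3 rose in Uhrf1-/- cells, with a log2 fold change of 2.89 (SE 0.34, limma adjusted p = 0.018), the third highest fold change of 10608 tested genes. On the log2(FPKM + 1) scale the difference was 3.23, 3.46 and 1.99 in replicate pairs 1, 2 and 3. Leaving out Uhrf1-/- replicate 2 or 3 or wild-type replicate 1 or 2 ended the call of Cpa3 (limma adjusted p = 0.061, 0.057, 0.086 and 0.109), and it held without each of the other libraries (0.017 and 0.0080). With no expression minimum limma called 0 of 16724 genes, 0% in either direction, and Cpa3 had an adjusted p of 0.115.

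Mcpt8 (Entrez gene 17231; chromosome 14, 56082163 to 56085499) encodes a granule protease of mouse basophils. It stood at 0.561, 0.694 and 3.81 FPKM in Uhrf1-/- LSK replicates 1 to 3, against 0.378 FPKM, 0 and 0.435 FPKM in wild-type LSK replicates 1 to 3. Uhrf1-/- replicate 3 was far above the others, and the LK library had 2.95 FPKM. These values rest on 8, 10 and 62 read equivalents in Uhrf1-/- cells, 52 in LK cells and 5, 0 and 10 in wild-type LSK cells. Uhrf1-/- replicates 1 and 2 thus had no more reads than wild-type replicate 3, whose library was the deepest. Mcpt8 was below the expression minimum and was not tested in the main comparison. With the minimum lowered to 0.3 FPKM its log2 fold change was 0.90 (limma adjusted p = 0.843, and 0.170 with the replicate block).

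Gzmb (Entrez gene 14939; chromosome 14, 56258836 to 56262334) encodes granzyme B, a serine protease of cytotoxic lymphocytes that mouse mast cells and basophils can also make. It was listed at 0 in Uhrf1-/- LSK replicates 1 and 3 and in wild-type LSK replicates 1 and 3. Replicate 2 had 0.293 FPKM in Uhrf1-/- and 0.112 FPKM in wild-type cells, from 8 and 4 read equivalents. The LK library had 1.12 FPKM from 35 read equivalents, above every LSK library. Gzmb and Mcpt8 lie in one cluster of protease genes on chromosome 14. Of 13 other genes of this cluster, 10 were listed at 0 in all 7 libraries. Ctsg, which encodes the neutrophil and mast cell protease cathepsin G and lies 14386 bases from Mcpt8, was the 1 that reached the expression minimum. Ctsg had 17.1, 20.5 and 19.7 FPKM in Uhrf1-/- and 5.87, 3.96 and 11.8 FPKM in wild-type LSK cells, and 128.3 FPKM in LK cells. It rose with the block only (log2 fold change 1.40, limma blocked adjusted p = 0.0068, adjusted p = 0.191 without it), and this call was lost without pair 2.

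Ms4a2 (Entrez gene 14126; chromosome 19, 11615517 to 11623790) encodes the beta subunit of the high-affinity IgE receptor. It stood at 0.883, 1.17 and 0.841 FPKM in Uhrf1-/- LSK replicates 1 to 3, against 0.047, 0.011 and 0.028 FPKM in wild-type LSK replicates 1 to 3. The LK library had 0.848 FPKM, inside the Uhrf1-/- range. In read equivalents the libraries held 72, 94 and 81 in Uhrf1-/- cells, 57 in LK cells and 3, 1 and 3 in wild-type LSK cells. The mean was 0.966 ± 0.182 FPKM in Uhrf1-/- and 0.029 ± 0.018 FPKM in wild-type cells (SD, n = 3 each), a ratio of 33.6, and the wild-type values come from 7 reads in all. Ms4a2 did not reach the mean of 1 FPKM and was not tested in the main comparison. With the minimum lowered to 0.3 FPKM, it was not called (log2 fold change 0.93, limma adjusted p = 0.091), where 0.154% of 12311 genes were called higher, and it was called with the replicate block (adjusted p = 0.026), a combination chosen after the values were seen. It passed this minimum only through the Uhrf1-/- libraries, where it is high. On the scaled count values the blocked log2 fold change was 2.33 (limma adjusted p = 1.44e-05). Without pair 2 the blocked call on FPKM was lost (adjusted p = 0.360).

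Fcer1a (Entrez gene 14125; chromosome 1, 173221269 to 173227232) encodes the alpha subunit, which binds IgE, and was listed at 0 in every library. Fcer1g encodes the gamma subunit, which the receptor shares with other Fc receptors. Its level was 244.5, 230.6 and 117.5 FPKM in Uhrf1-/- and 362.3, 138.3 and 144.9 FPKM in wild-type LSK cells, and 160.3 FPKM in LK cells. The ranges of Fcer1g overlapped (log2 fold change -0.04, limma adjusted p = 0.995). Of the 3 receptor subunits, transcripts of the gamma chain were thus abundant in all libraries, those of the beta chain were few, and none of the alpha chain was recorded.

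**Figure D3:**
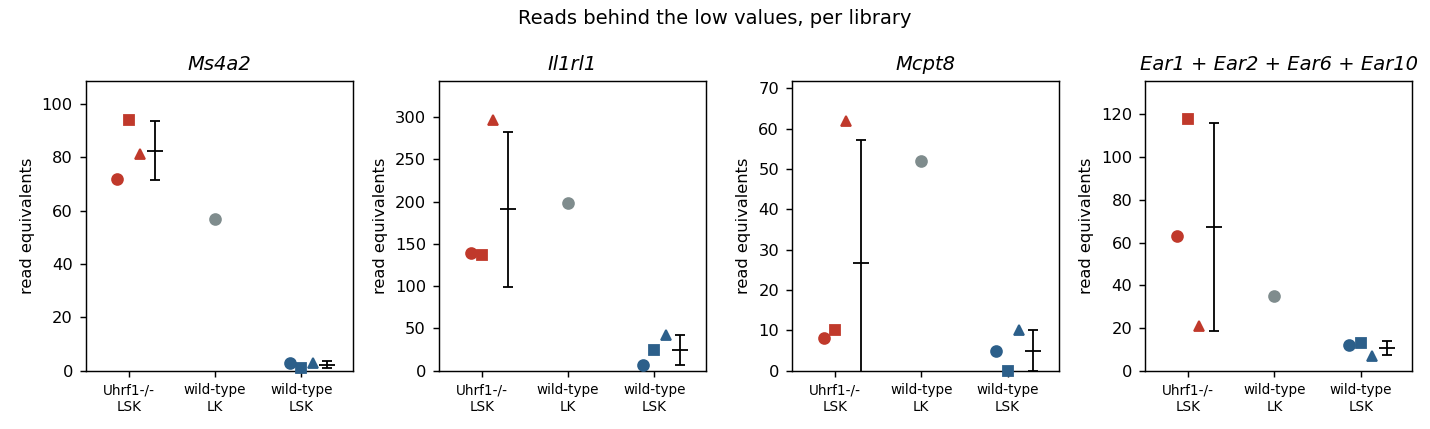
Read equivalents (y axis, linear, from 0) behind the low values of Ms4a2, Il1rl1, Mcpt8 and the summed genes Ear1, Ear2, Ear6 and Ear10 in Uhrf1-/- LSK, wild-type LK and wild-type LSK libraries, with symbols and black bars as in the plot of FPKM levels. Ms4a2 has 72 to 94 read equivalents in Uhrf1-/- and 1 to 3 in wild-type LSK libraries, whereas Uhrf1-/- replicates 1 and 2 of Mcpt8 lie at the wild-type level.

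Il1rl1 (Entrez gene 17082; chromosome 1, 40404864 to 40465418) encodes ST2, the interleukin-33 receptor of mast cells, basophils and type 2 lymphoid cells. It stood at 1.16, 1.11 and 1.97 FPKM in Uhrf1-/- LSK replicates 1 to 3, against 0.059, 0.186 and 0.213 FPKM in wild-type LSK replicates 1 to 3. The LK library had 1.64 FPKM. Every Uhrf1-/- library was above every wild-type LSK library. In read equivalents the values were 139, 137 and 297 in Uhrf1-/- cells, 198 in LK cells and 7, 24 and 42 in wild-type LSK cells. Il1rl1 was likewise under the minimum of 1 FPKM. At the minimum of 0.3 FPKM, which it too passed only through the Uhrf1-/- libraries, it was not called (limma adjusted p = 0.102) and was called with the replicate block (adjusted p = 0.017). The blocked log2 fold change on the scaled count values was 2.45 (limma adjusted p = 1.5e-05), and without pair 2 the blocked call on FPKM was lost (adjusted p = 0.180). FPKM per scaled count differed up to 1.55-fold between libraries for Il1rl1 and for Ms4a2, so that the 2 scales can give different fold changes. The transcript lengths behind the FPKM are not given, and the cause of this difference was not tested. With the block and this minimum, 0.91% of all 12311 tested genes were called higher on FPKM and 0.95% on the scaled count values. Since Ms4a2, Il1rl1, Mcpt8 and Ear2 had wild-type means under 0.3 FPKM, the number of the 10 genes called at this minimum supports nothing further.

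Hdc (Entrez gene 15186; chromosome 2, 126593659 to 126624025) encodes histidine decarboxylase, the enzyme that makes histamine. It stood at 8.36, 7.20 and 6.19 FPKM in Uhrf1-/- LSK replicates 1 to 3, against 2.65, 6.65 and 3.63 FPKM in wild-type LSK replicates 1 to 3. The ranges overlapped through wild-type replicate 2. The LK library had 28.2 FPKM, above all LSK libraries. The mean was 7.25 ± 1.09 FPKM in Uhrf1-/- and 4.31 ± 2.09 FPKM in wild-type LSK cells (SD, n = 3 each). With a log2 fold change of 0.70 (SE 0.32) Hdc did not pass (limma adjusted p = 0.895, and 0.256 with the block). Tph1 (Entrez gene 21990; chromosome 7, 46644641 to 46672537), which encodes the first enzyme of serotonin synthesis outside neurons, was listed at 0 in every library. Slc18a2, which encodes the transporter that loads such amines into vesicles, had 4.59, 4.79 and 7.84 FPKM in Uhrf1-/- and 2.47, 3.60 and 2.82 FPKM in wild-type LSK cells and did not pass, with ranges apart (limma adjusted p = 0.725).

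Prg2 (Entrez gene 19074; chromosome 2, 84980461 to 84983632) encodes major basic protein, the main protein of the eosinophil granule core. It stood at 18.9, 19.6 and 21.2 FPKM in Uhrf1-/- LSK replicates 1 to 3 and at 19.5 FPKM in the LK library. The wild-type LSK replicates 1 to 3 had 29.6, 14.8 and 1.98 FPKM. The Uhrf1-/- libraries were thus close to each other, and the wild-type libraries spread on both sides of them. The log2 fold change was 0.89 (SE 0.79, limma adjusted p = 0.942). It turned to -0.07 without wild-type replicate 3, whose level of 1.98 FPKM set its sign. Prg3, a related granule protein gene 4564 bases away, had 2.14, 2.78 and 0.805 FPKM in Uhrf1-/- and 4.19, 2.96 and 0.590 FPKM in wild-type LSK cells (limma adjusted p = 0.964). Its replicate 3 was the lowest in both genotypes.

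Ear2 (Entrez gene 13587; chromosome 14, 44102654 to 44103531) encodes an eosinophil-associated ribonuclease. Its level was 2.16, 3.70 and 0.718 FPKM in Uhrf1-/- LSK replicates 1 to 3, against 2.4e-06, 0.25 and 0.315 FPKM in wild-type LSK replicates 1 to 3. The LK library had 0.192 FPKM, within the wild-type LSK range. Ear2 rose with the block only (log2 fold change 1.32, SE 0.35, limma blocked adjusted p = 0.016, adjusted p = 0.241 without it). It passed the minimum of 1 FPKM only through the Uhrf1-/- libraries, as did Ear1. Ear2 belongs to a family of genes with similar sequences. Over the aligned stretch its GENCODE transcript was 96.4% identical to that of Ear1, 94.5% to that of Ear10 and 88.4% to that of Ear6, and the value of 2.4e-06 FPKM corresponds to a small fraction of a read. Ear1 had 2.26, 4.32 and 0.559 FPKM in Uhrf1-/- cells, 1.62 FPKM in LK cells and 0.080 FPKM, 0.059 FPKM and 0 in wild-type LSK cells. Ear1 also rose with the block only (log2 fold change 1.52, limma blocked adjusted p = 0.0069). Summed over Ear1, Ear2, Ear6 and Ear10, which does not depend on how reads were divided among them, the read equivalents were 63, 117.79 and 21 in Uhrf1-/- cells, 35 in LK cells and 12.15, 12.83 and 7 in wild-type LSK cells. These sums were not all whole, and sharing of reads with other genes was not tested. The summed ranges did not overlap between genotypes. Ear6 went the other way, with 1, 1.79 and 0 read equivalents in Uhrf1-/- and 11.15, 7.59 and 0 in wild-type LSK cells. Without pair 2 (limma adjusted p = 0.484) and on the scaled count values the blocked call of Ear2 was lost (limma adjusted p = 0.084).

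**Figure D4:**
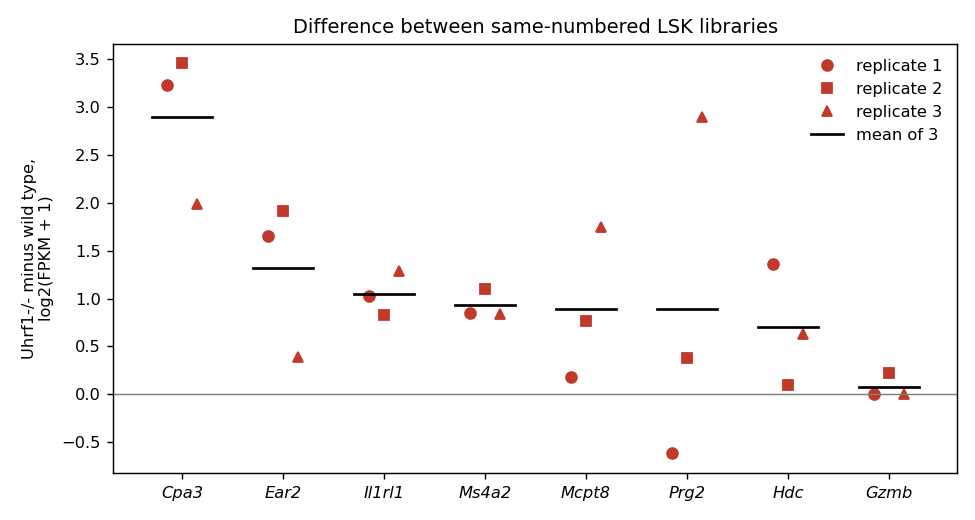
Difference between the Uhrf1-/- and the wild-type LSK library of the same replicate number, on the log2(FPKM + 1) scale (y axis), for 8 genes, with 1 point per pair and a black line at the mean. Cpa3, Ear2, Il1rl1, Ms4a2, Mcpt8 and Hdc are positive in all 3 pairs, and Prg2 runs between -0.62 in pair 1 and 2.90 in pair 3.

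The wild-type LK library gives the level of these genes in more mature progenitors. It has no replicate, so that no test was made. A gene was counted as higher where the LK level lay outside the range of the wild-type LSK libraries and at least 2-fold above their mean on the log2(FPKM + 1) scale. Cpa3, Hdc, Mcpt8, Il1rl1 and Gzmb were higher in LK than in wild-type LSK cells by this count, with log2 ratios of 2.99, 2.53, 1.65, 1.20 and 1.03, and none was lower. Among 16936 genes above 0 in any library, 6.23% were higher and 7.98% lower. Since the 10 genes were chosen with earlier results of these data known, this count is no test of them either. Ms4a2 had a log2 ratio of 0.84, Prg2 one of 0.86 and Ear2 one of 0.01. The added 1 FPKM shrinks the ratio of genes as low as Ms4a2. Its LK level of 0.848 FPKM lay above every wild-type LSK library, at 29.5 times their mean. This rests on 57 read equivalents in LK cells and 3, 1 and 3 in wild-type LSK cells. The ratio of mean levels in LK over Uhrf1-/- LSK cells was 1.06 for Cpa3, 0.877 for Ms4a2, 1.16 for Il1rl1, 1.75 for Mcpt8, 3.89 for Hdc, 0.978 for Prg2 and 0.0875 for Ear2. Hdc and Gzmb were thus above all Uhrf1-/- libraries in LK cells, Ear2 was below all of them, and Cpa3, Ms4a2, Il1rl1, Mcpt8 and Prg2 were within their range. The LK library had 3 read equivalents of Ear2 and 25 of the similar Ear1, and how reads were divided between them was not tested. Summed over Ear1, Ear2, Ear6 and Ear10, its 35 read equivalents lay within the Uhrf1-/- range of 21 to 117.79. The comparisons of Uhrf1-/- LSK and of LK cells with wild-type LSK cells share the wild-type libraries.

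Other genes of these cells were taken from lists. Of 17 other mast cell granule genes, 8 were listed at 0 in all 7 libraries, among them the tryptases Tpsb2 and Tpsab1, the chymase Mcpt4 and the mast cell receptor Mrgprb2. The chymase Cma1 reached 0.054 FPKM at most in LSK cells and 0.672 FPKM in LK cells. Of the 7 granule genes tested, Ctsg was called higher, with the block, and the median log2 fold change was 0.25, beside -0.03 over all tested genes. Of 10 tested among 18 other basophil and eosinophil genes, Itga2b was called in both fits and Ear1 with the block, with a median of 0.43. With the block, 1 of this list was called higher without pair 2, and 3 higher and 1 lower without pair 1. Itga2b encodes CD41, an integrin of megakaryocytes and early progenitors, and stood at 19.9 ± 2.85 FPKM in Uhrf1-/- and 5.04 ± 0.469 FPKM in wild-type cells (SD, n = 3 each). Its unblocked call was lost without any 1 of the 6 LSK libraries. The eosinophil peroxidase gene Epx was below the minimum, at 0.586, 0.875 and 0.487 FPKM in Uhrf1-/- cells, 1.10 FPKM in LK cells and 0.058, 0.462 and 0.144 FPKM in wild-type LSK cells.

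Among 20 tested transcription factor genes of these lineages, Gata1 and Gata2 were called higher in both fits and Zfpm1 and Cebpe with the block. Gata1 and Gata2 encode the GATA factors of mast cell, basophil and eosinophil formation. Gata1 had 59.4 ± 7.78 FPKM in Uhrf1-/- and 6.43 ± 3.80 FPKM in wild-type LSK cells (SD, n = 3 each) and 133.0 FPKM in LK cells. Gata2 had 112.9 ± 8.31 FPKM in Uhrf1-/- and 32.6 ± 8.74 FPKM in wild-type LSK cells and 24.7 FPKM in LK cells. Zfpm1 encodes the GATA cofactor FOG-1, which is known to hold back mast cell and eosinophil fates. It stood at 102.8, 83.3 and 19.9 FPKM in Uhrf1-/- replicates 1 to 3 and 48.6, 22.8 and 4.49 FPKM in wild-type LSK replicates 1 to 3 (log2 fold change 1.61, limma adjusted p = 0.942, 0.0009 with the block). Cebpe, a granulocyte factor, stood at 5.43 ± 0.597 FPKM in Uhrf1-/- and 2.22 ± 0.682 FPKM in wild-type LSK cells (SD, n = 3 each; limma adjusted p = 0.233, 0.025 with the block). Mitf, a factor of mature mast cells, was below the minimum, at 0.367, 0.167 and 0.101 FPKM in Uhrf1-/- and 0.227, 0.212 and 0.513 FPKM in wild-type LSK cells. Without the block, 1 factor gene was still called after leaving out Uhrf1-/- replicate 1 or wild-type replicate 3, and 0 after leaving out any of the other 4 LSK libraries. With the block, 2 were called without pair 2. Over these 20 factor genes the median log2 fold change was 0.10.

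Signalling, synthesis and receptor genes gave no calls on FPKM at the minimum of 1 FPKM with all LSK libraries in the fit. With the block, scaled count values and the minimum of 0.3 FPKM, 1 IgE receptor signalling gene was called lower. Of 16 tested genes of IgE receptor signalling, limma called 0 with or without the block, and none reached an unadjusted p of 0.05. Their median log2 fold change was -0.09. The furthest from 0 was Plcg1, a phospholipase, at -0.80, with 11.8 FPKM in wild-type replicate 2 and at most 2.28 FPKM in the other LSK libraries. Of 8 tested genes of histamine, serotonin and eicosanoid synthesis, limma likewise called 0, with 1 gene at an unadjusted p below 0.05 and a median of 0.02. This gene was Hpgds, which encodes a prostaglandin D2 synthase, at 1.32 ± 0.069 FPKM in Uhrf1-/- and 2.53 ± 0.409 FPKM in wild-type LSK cells (SD, n = 3 each), with ranges apart (log2 fold change -0.60, limma adjusted p = 0.752). Ltc4s, the leukotriene C4 synthase gene, had the largest difference, with overlapping ranges (log2 fold change 0.98, limma adjusted p = 0.942). Of 10 tested cytokine receptor genes of these cells, limma called 0, again with 1 gene at an unadjusted p below 0.05, and the median was 0.19. This 1 was Csf2rb, the common beta receptor chain for interleukin-3, interleukin-5 and GM-CSF. It stood at 17.2 ± 3.68 FPKM in Uhrf1-/- and 10.3 ± 2.20 FPKM in wild-type cells (SD, n = 3 each). Its log2 fold change was 0.70 (limma adjusted p = 0.771), with ranges apart. Kit was lower in every Uhrf1-/- library, at 27.9, 27.2 and 24.4 FPKM, than in wild-type LSK cells, at 29.0, 56.6 and 36.5 FPKM. It was not called (log2 fold change -0.55, limma adjusted p = 0.942).

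**Figure D5:**
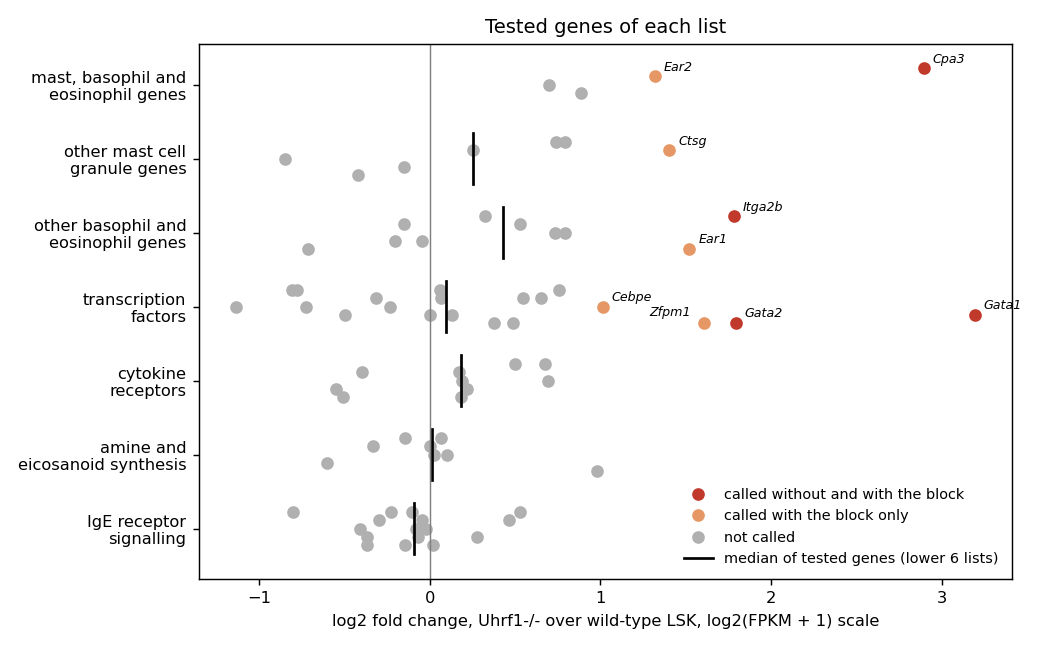
Log2 fold change of Uhrf1-/- over wild-type LSK cells on the log2(FPKM + 1) scale (x axis) for the tested genes of each list, with 1 point per gene and a black line at the median of the lower 6 lists. Red genes were called by limma without and with the replicate block, orange genes with the block only, and grey genes in neither. Cpa3, Gata1, Gata2 and Itga2b are red.

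Markers of other cells that express some of these genes were read beside them. For cytotoxic lymphocytes, which express Gzmb, 13 marker genes summed to 76.9 to 108.1 FPKM in Uhrf1-/- cells, 101.8 FPKM in LK cells and 36.6 to 78.9 FPKM in wild-type LSK cells. Most of this was Nkg7, which myeloid progenitors also express, while Cd3e and Ncr1 were listed at 0 in every library. Klrd1 went the other way, at 0 in every Uhrf1-/- library and at 1.57, 1.94 and 2.35 FPKM in wild-type LSK cells. It was below the expression minimum. Ccl5 was higher in Uhrf1-/- cells with ranges apart, at 6.10 ± 2.89 against 2.15 ± 1.24 FPKM (SD, n = 3 each). Ccl5 was not called (log2 fold change 1.17, limma adjusted p = 0.473, 0.081 with the block). For type 2 innate lymphoid cells, which express Il1rl1, 10 markers summed to 5.56 to 6.78 FPKM in Uhrf1-/- and 9.12 to 10.5 FPKM in wild-type LSK cells, and Il5 was listed at 0 in every library. Of 3 tested markers of these cells, Il7r was called lower with the block only (log2 fold change -1.52, limma blocked adjusted p = 0.0046). Without the block it was not called (limma adjusted p = 0.104). With means of 0.24 FPKM in Uhrf1-/- and 2.76 FPKM in wild-type LSK cells, Il7r passed the minimum only through the wild-type libraries. Megakaryocyte markers moved with the genotype, with 2 of 8 tested genes called higher and 4 with the block. Sums over all 10 megakaryocyte markers were 188.6 to 277.1 FPKM in Uhrf1-/- and 107.2 to 193.7 FPKM in wild-type LSK cells. Of 7 tested erythroid markers 1 was called higher, and with the block 2 were higher and 1 lower. Sums over all 11 erythroid markers with a row were 291.6 to 439.4 FPKM in Uhrf1-/- and 236.9 to 425.7 FPKM in wild-type LSK cells. In every LSK library most of this sum was Car2. Of 4 tested macrophage markers Csf1r was called lower. Of 6 tested neutrophil and monocyte markers S100a8 was called lower with the block (log2 fold change -2.80, limma blocked adjusted p = 0.014). Sums over all 10 neutrophil and monocyte markers with a row were 1134 to 1188 FPKM in Uhrf1-/- and 994.5 to 1497 FPKM in wild-type LSK cells. The part of such cells in the levels of the 10 genes was not tested.

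The genes whose pattern over the 7 libraries was most like that of Cpa3, by Pearson r of log2(FPKM + 1) among 10649 genes, were Muc13 (r = 0.969), Soat2 (0.966), Ormdl3 (0.957), Tgfbr3 (0.948) and Car13 (0.947). Muc13 encodes a membrane mucin and had 11.7, 14.7 and 14.0 FPKM in Uhrf1-/- LSK cells, 12.7 FPKM in LK cells and 2.0, 4.15 and 5.93 FPKM in wild-type LSK cells. These 7 libraries share genotype, cell type and replicate number in part, and r describes them only. By the same measure Gata1 was at 0.845, Gata2 at 0.558, Mcpt8 at 0.672, Ear2 at 0.667, Hdc at 0.633 and Prg2 at 0.197. Of these, Prg2 was thus the least like Cpa3, and the remaining members of the 10 were too low to be among the genes compared.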

How the data were processed

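RNA of double-sorted fetal liver cells was sequenced with the TruSeq RNA kit on an Illumina instrument, per the labels' protocols. The authors deposited FPKM values and a count column for each library. The submitters' processing notes name TopHat2 2.0.9, Cufflinks 2.1.1 and mm10 and give no roles. The sources used here state no annotation or strand setting, so reads of near-identical or overlapping genes cannot be told apart. The deposited count values were not whole numbers and served as a scaled signal. Between 98.2% and 98.64% of values below 100 steps lay within 0.02 of a multiple of the library's step, and values divided by the step are called read equivalents. No count model was fitted for this reason. Groups and replicate numbers come from the titles. Which animals went into a library is not stated, so p-values cover only how these libraries varied, which may be technical.

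For Uhrf1-/- against wild-type LSK libraries, limma 3.58.1 (R 4.3.3) was run on log2(FPKM + 1) with trend and robust moderation, two-sided, for the 10608 genes whose mean reached 1 FPKM. The Benjamini-Hochberg threshold was 0.05. Fold changes on this scale understate the change of low genes. Libraries with the same number deviated together from their group means (r = 0.349, 0.332 and 0.645, all above 0.1). Differently numbered libraries gave r between -0.591 and 0.213, with 2 of 6 values above 0.1, both between numbers 1 and 2. The numbers were therefore read as pairs and used as a block in a second fit. This reading comes from the data, since no label says what libraries of 1 number have in common. The fit without the block was tested on simulated data, drawn independently for each library. The blocked fit was not tested in this way. Alternatives were other pseudocounts, minimums, scalings and moderation, and leaving libraries out. The 10 genes and all lists were chosen with earlier results of these data known. The text names all 10 genes, up to 6 called genes of each other list or the largest difference where none was called, and the 5 genes most like Cpa3. Fcer1g, Slc18a2, Csf2rb, Kit, Hpgds, Prg3, Epx, Ear6, Mitf, Cma1, the markers and the genes listed at 0 were added after their values were seen. Coordinates and promoters are those of RefSeq on GRCm38.p6.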

Additional observations from a re-analysis of the deposited data

How the results depend on the processing

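Without the block, 12 genes were called higher and 6 lower. These counts were 0 and 0 with no expression minimum and 19 and 8 with a minimum of 0.3 FPKM. Genes called lower numbered 11 on scaled count values and 1 without trend and robust moderation. Leaving out 1 library at a time gave 0 to 3 genes higher and 0 to 1 lower. Of the 10 genes, 1 was called, and 0 or 1 after leaving out a library. The count was 0 with no minimum, and 0 were called lower under all settings run.

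With the replicate block, 131 genes were called higher and 88 lower, and 2 of the 10 genes were called. With the block and no minimum these counts were 0, 0 and 0. Without pair 1 they were 338, 318 and 3, without pair 2 they were 13, 8 and 1, and without pair 3 they were 117, 84 and 2. The following were chosen after seeing the data, all with the block. Scaled count values gave 111, 98 and 1, the same with no minimum gave 0, 1 and 0, and median-of-ratios scaling gave 129, 75 and 2. The minimum of 0.3 FPKM gave 112, 74 and 4, with a pseudocount of 0.1 it gave 110, 75 and 4, and on scaled count values 117, 116 and 3. With that minimum, leaving out pair 1 gave 358, 338 and 6, pair 2 gave 14, 6 and 1, and pair 3 gave 148, 118 and 4. Of the pairs left out, pair 2 gave the lowest counts, and without pair 1 Prg2 and Mcpt8 were called too (log2 fold change 1.64 and 1.25). Ms4a2, Il1rl1, Mcpt8 and Ear2 passed the minimums only through the Uhrf1-/- libraries, so these counts of the 10 genes show no stability. The cause was not tested.

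Leaving out 1 library at a time, the log2 fold change of Prg2 ran between -0.073 (without wild-type replicate 3) and 1.61 (without wild-type replicate 1), and that of Gzmb between -0.051 (without Uhrf1-/- replicate 2) and 0.13. With the block, Prg2 was at -0.12 without pair 3 and Gzmb at 0 without pair 2. The LK over wild-type LSK log2 ratio ran between -0.10 (without wild-type replicate 3) and 1.58 for Prg2, and between -0.11 (without wild-type replicate 1) and 0.092 for Ear2, which was at -0.023 on scaled count values. The median of all genes moved by less than 0.1 under every scaling. The planned count models (edgeR and DESeq2) were not run, because the deposited counts are not whole. Below 1 FPKM, values rest on few reads, and wild-type levels of Ms4a2 and Mcpt8 on 10 or fewer per library.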
